A study of Homo sapiens with 24 samples.

Results

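Histone genes were examined in HCT116, an established human colorectal carcinoma cell line, across 24 arrays in 11 groups. A probe set of the array was taken where its single gene symbol began with H1-, H2AC, H2BC, H3C, H4C, H3-, H2AZ or MACROH2A, or was H2AX or H2AJ. This gave 82 of the 54675 probe sets and 58 of the 19775 genes that have a probe set of their own in the array's annotation. Cells had been exposed for 72 h to an inhibitor of the DNA methyltransferase DNMT1 or to the solvent DMSO alone. DAC (decitabine) was given at 5 µM and 120 nM, the prodrug G668684 (titled ester) at 7 µM and 150 nM, the prodrug G669043 (titled Aza) at 1500 nM and 150 nM, and Aza (azacytidine) at 1500 nM and 150 nM. The prodrug G669071 (titled phos) was given at a higher and a lower dose, for which the sample titles have 63 and 6 µM and the source names 120 and 6 nM, so it is named here by order alone. Each treated group had 2 arrays and DMSO had 4, and the cells of every group received the same volume of DMSO. The labels do not say whether replicates came from separate cultures, so the spread behind each p-value may be technical.

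Histones package DNA: H2A, H2B, H3 and H4 form the core of the nucleosome, and H1 binds the linker DNA between nucleosomes. Most are encoded by clustered, replication-dependent genes that are transcribed in S phase and whose mRNA normally ends in a stem-loop in place of a poly(A) tail, although several of them also give polyadenylated transcripts. Replacement variants such as H2AX, the H2A.Z proteins, macroH2A and H3.3 come from genes outside those clusters, are made through the cell cycle and have polyadenylated mRNA. The labelling protocol named in the labels is based on a kit that primes on poly(A), so the arrays may report only the polyadenylated share of a clustered gene's transcripts.

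By symbol, 50 probe sets of 44 genes were clustered (H1-1 to H1-6, H2AC, H2BC, H3C, H4C and H3-4) and 28 probe sets of 10 genes were replacement or lone-locus variants. The other 4 probe sets matched the symbol rule but named no coding gene (H1-10-AS1, H1-9P, H2AC5P and H4C10P), and none of them passed the test in any comparison with DMSO. A filter of log2 intensity 5 on at least 2 arrays kept 75 of the 82, of which 46 clustered probe sets stood for 41 genes and 25 replacement probe sets for all 10 genes. Of the clustered genes, H2AC16, H3C7 and H3C11 had no probe set past the filter. H2BC12L is counted as clustered by its symbol throughout, although it lies on chromosome 21, outside the clusters. H2BC11 and H2BC17 reached the filter through treated arrays alone, so a rise in them was in part a condition of being tested. A further 28 probe sets name a member gene together with other genes, including every probe set that names H3-3B, and lie outside the rule. Of the tested probe sets, 13 of 46 clustered and 13 of 25 replacement ones have the suffix _s_at or _x_at. This suffix marks probes shared with other sequences, so near-identical histone genes may share signal in such probe sets.

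Array medians lay between 6.46 and 6.58 on the log2 scale. The epithelial markers EPCAM, KRT8, KRT18, KRT19 and CDH1 stood at the 94.0th to 99.7th percentile of all probe sets. Of 8 markers of other cell types in the probe table, PTPRC, which marks blood cells, stood at the 14.1th percentile, and the other 7 ranged from the 29.7th (LYZ) to the 92.5th percentile (COL1A1). The 3′ minus 5′ difference of beta-actin, a measure of RNA integrity, was -0.03 and 0.00 on DMSO replicates 1 and 2 against 0.24 and 0.15 on DMSO replicates 3 and 4, and was highest, at 0.34, on replicate 2 of G669043 at 1500 nM. Changes are given as log2 fold changes of group means with the standard error (SE) from limma fitted to all 24 arrays. A call is an adjusted p under 0.05 after Benjamini-Hochberg correction over 35146 probe sets.

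A group of clustered genes rose strongly with DAC, G668684 and G669071 at every dose, among them H2BC12L, H1-2, H2BC5, H2BC12, H2BC9, H2BC6 and H2AC6, while most called replacement variants fell, and mainly at the higher doses. Of the 75 tested members, 21 rose and 13 fell with DAC at 5 µM, in a comparison that called 28.2% of all probe sets (15.1% higher and 13.1% lower). Among them 18 of 46 clustered probe sets rose and 1 fell, whereas 3 of 25 replacement probe sets rose and 12 fell. The 46 include those of H2BC11, which rose, and H2BC17, both tested through treated arrays alone. The median log2 fold change was 0.18 over the clustered probe sets tested, -0.21 over the replacement ones and -0.05 over all probe sets. With DAC at 120 nM, 20 members rose and 2 fell, with 19.9% of all probe sets called (10.5% higher and 9.4% lower). Here again 18 clustered probe sets rose and 1 fell, but only 2 replacement probe sets rose and 1 fell. Their medians were 0.21 and -0.04, beside -0.01 over all probe sets.

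The same split was measured with both prodrugs that were tested beside DAC, each against the same DMSO arrays. G668684 at 7 µM raised 21 members and lowered 13, where 28.1% of all probe sets were called (14.8% higher and 13.3% lower), and of these 18 clustered probe sets rose and 2 fell while 3 replacement probe sets rose and 11 fell. At 150 nM it raised 21 and lowered 3, with 18.4% called (8.89% higher and 9.49% lower), made up of 19 clustered probe sets higher and of 2 replacement probe sets higher and 3 lower. The higher dose of G669071 raised 19 and lowered 10, with 26.1% called (13.6% higher and 12.5% lower). Its clustered probe sets counted 16 higher and 3 lower, and its replacement probe sets 3 higher and 7 lower. The lower dose raised 14, all of them clustered, and lowered 1, which was replacement, with 12.5% called (6.78% higher and 5.69% lower). Of the 46 clustered probe sets, 12 and 12 were called higher by at least 1 log2 unit with DAC at 5 µM and 120 nM. These counts were 11 and 12 with G668684 at 7 µM and 150 nM, and 11 and 8 with the higher and lower dose of G669071. Over all 35146 probe sets they were, in the same order, 735 and 353, 704 and 298, and 629 and 221. No replacement probe set of the 25 tested reached that size.

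**Figure D1:**
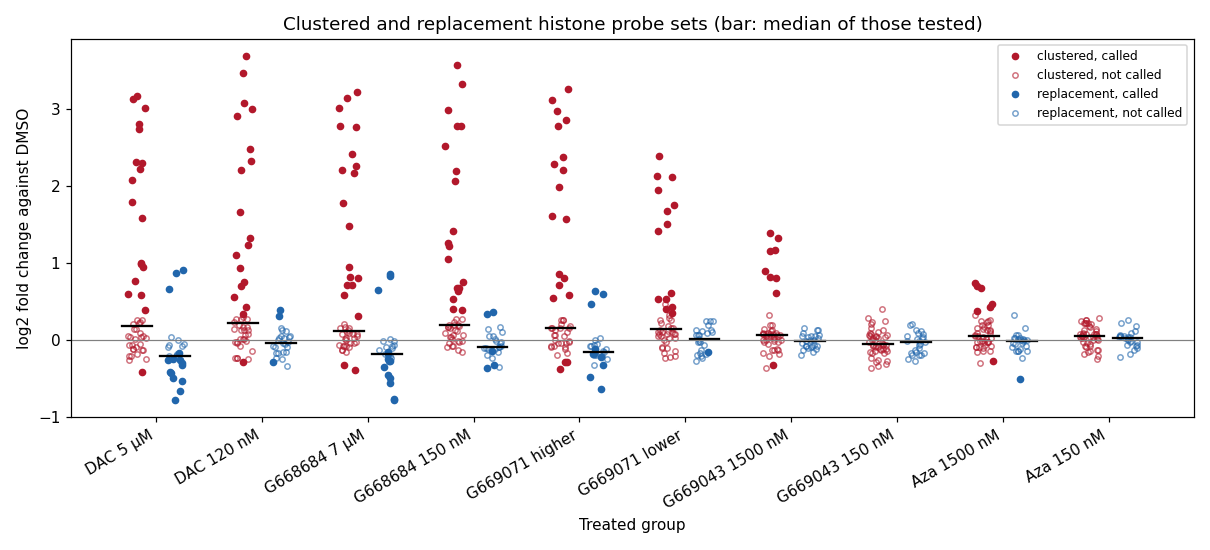
Log2 fold change against DMSO (y axis) of each tested clustered (red) and replacement (blue) histone probe set in the 10 treated groups (x axis). Filled points passed adjusted p under 0.05, open points did not, and the bars are medians of the probe sets tested. With DAC at 5 µM the clustered points spread up to 3.17 with a median of 0.18, and the replacement points lie between -0.78 and 0.91 with a median of -0.21.

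Aza and G669043 gave far fewer calls. With G669043 at 1500 nM, 8 members rose and 1 fell, with 6.98% of all probe sets called (4.24% higher and 2.74% lower), and each of the 9 was clustered. With Aza at 1500 nM, 6 rose and 2 fell, with 14.3% called (6.09% higher and 8.21% lower), and the 6 that rose were clustered. Leaving out Aza replicate 1 brought the Aza count of called members to 4, and leaving out replicate 2 brought it to 5. Neither compound had a called member at 150 nM with limma, where G669043 called 0.256% of all probe sets (0.222% higher and 0.0341% lower) and Aza 0.947% (0.666% higher and 0.282% lower). At an unadjusted p under 0.05, 11 clustered and 3 replacement probe sets passed with G669043 at 150 nM, and 7 clustered and 2 replacement probe sets with Aza at 150 nM. Over all tested members these counts were 15 and 9 of 75, beside 5962 and 3742 of 35146 probe sets, so neither share stood far from the background.

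By gene, 22 of the 41 clustered genes tested were called in at least 1 comparison with DMSO, 19 of them only higher and 3 only lower. Counts over several comparisons were not made for all genes, so they have no background share here. With DAC at 5 µM alone, 16 of the 41 rose and 1 fell, beside 3897 and 3296 of all 18055 genes tested. By family, with DAC at 5 µM, 10 of 15 H2B probe sets rose, against 4 of 8 for H2A, 2 of 9 for H4, 1 of 7 for H3 and 1 of 7 for H1. The H2B probe sets include those of H2BC11, which is among the 10, and H2BC17, both tested through treated arrays alone. Of the clustered probe sets whose suffix marks shared probes, 8 of 13 rose in that comparison, and 10 of the other 33. In all 6 comparisons of DAC, G668684 and G669071 with DMSO, which share the DMSO arrays, 10 clustered genes rose, namely H1-2, H2AC6, H2AC8, H2AC25, H2BC5, H2BC6, H2BC9, H2BC12, H2BC12L and H4C8. The 19 clustered genes never called included H1-1, H1-4, H1-5 and H1-6, the H2A genes H2AC4 and H2AC15, the H2B genes H2BC1, H2BC13, H2BC14 and H2BC15, the H3 genes H3C1, H3C2, H3C3, H3C8 and H3-4, and the H4 genes H4C5, H4C7, H4C9 and H4C13. Their 20 probe sets ranged from -0.37 (H2BC1 with G669043 at 1500 nM, adjusted p = 0.062) to 0.28 (H3C1 with Aza at 150 nM, adjusted p = 0.349), with 95% intervals no wider than ± 0.32. The array holds no detection calls, so whether those probe sets measured a transcript is unknown.

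**Figure D2:**
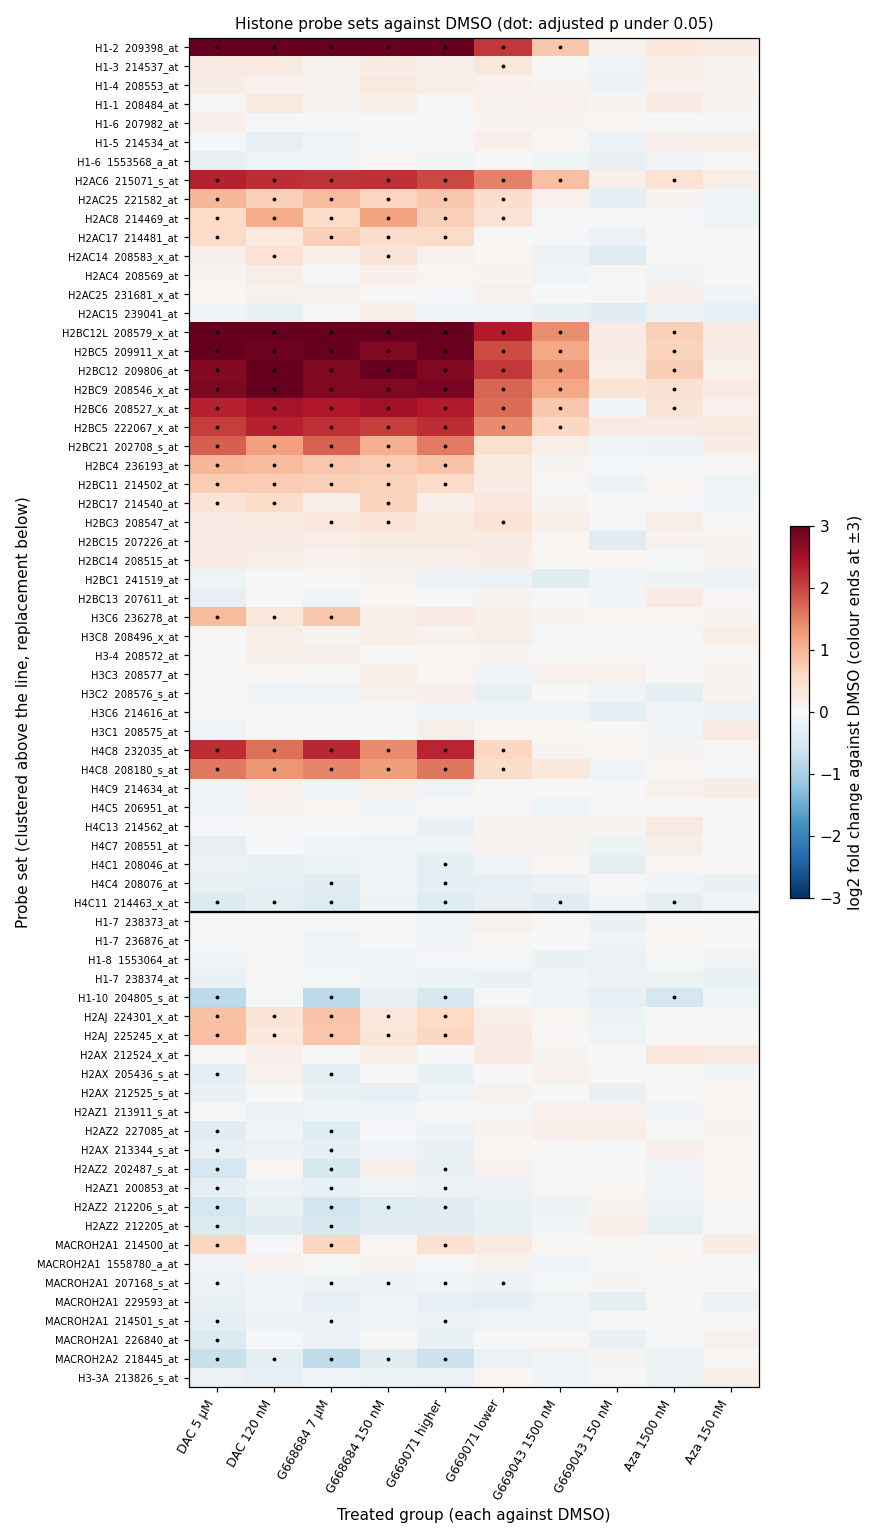
Log2 fold change against DMSO (colour, ending at ±3) of the tested coding histone probe sets (rows, clustered above the line and replacement below it) in the 10 treated groups (columns), with a dot where adjusted p was under 0.05. Red rows are mainly H2B, H2A and H4C8 probe sets and H1-2, and the columns of Aza and G669043 at 150 nM hold no dot.

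Among the linker histones one gene stood apart. H1-2, a clustered linker histone gene that is one of those known to give polyadenylated transcripts, read 10.98 and 11.14 with DAC at 5 µM and 11.61 and 11.43 with DAC at 120 nM, against 7.71, 8.40, 8.20 and 7.91 with DMSO. All treated arrays lay more than 2 log2 units above the highest DMSO array. The log2 fold change was 3.0 (SE 0.14, adjusted p = 1.62e-12) at 5 µM and 3.46 (SE 0.14, adjusted p = 2.68e-13) at 120 nM. With G668684 H1-2 rose by 3.0 at 7 µM and 3.33 at 150 nM, and with G669071 by 3.12 at the higher and 2.12 at the lower dose. G669043 at 1500 nM gave 8.94 and 8.80 and a rise of 0.81 (adjusted p = 0.000673), while Aza at 1500 nM gave 8.46 and 8.29, which overlapped DMSO (0.32, adjusted p = 0.138).

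The other linker genes of the clusters hardly moved. H1-4, whose RefSeq position is between H2AC6 and H2BC5 on chromosome 6, was not called in any comparison. H1-3 was called once, with the lower dose of G669071. To set a raised linker gene beside an uncalled one on chromosome 6, the RefSeq windows (GRCh38.p14) from 250 bases before to 50 bases after each start are printed 5′ to 3′ on the gene's strand, H1-2 at chr6:26056421-26056720 on the minus strand and H1-4 at chr6:26156079-26156378 on the plus strand. Capitals mark the motif TATAAA, the motif CCAAT and the motif ATTTGCA, each read on both strands.
H1-2: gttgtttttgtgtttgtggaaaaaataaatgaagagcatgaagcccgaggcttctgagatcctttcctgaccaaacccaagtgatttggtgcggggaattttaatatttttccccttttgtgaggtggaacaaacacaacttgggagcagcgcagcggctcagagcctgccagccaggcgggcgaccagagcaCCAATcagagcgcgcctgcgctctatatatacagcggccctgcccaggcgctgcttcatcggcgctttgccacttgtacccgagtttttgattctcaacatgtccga
H1-4: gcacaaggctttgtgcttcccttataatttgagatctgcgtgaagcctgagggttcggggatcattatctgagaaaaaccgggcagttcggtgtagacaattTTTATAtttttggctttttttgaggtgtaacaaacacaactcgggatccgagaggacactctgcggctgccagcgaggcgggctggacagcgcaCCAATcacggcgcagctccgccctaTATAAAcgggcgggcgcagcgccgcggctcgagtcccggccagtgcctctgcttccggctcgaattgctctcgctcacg
Both windows hold 1 CCAAT and neither holds ATTTGCA. The motif TATAAA occurs 2 times in the H1-4 window and 0 times in that of H1-2.

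Among H2A genes with a probe set of their own, H2AC6 rose most. H2AC6, which encodes a canonical H2A and is also known to give polyadenylated transcripts, read 9.13 and 9.16 with DAC at 5 µM and 8.95 and 9.16 at 120 nM, against 6.63, 6.88, 6.92 and 6.96 with DMSO. No treated array came within 1 log2 unit of DMSO, and the changes were 2.30 (SE 0.10, adjusted p = 9.43e-13) and 2.21 (SE 0.10, adjusted p = 2.59e-12). G668684 raised H2AC6 by 2.16 and 2.19 at 7 µM and 150 nM, and G669071 by 1.99 and 1.51 at its higher and lower dose. With G669043 at 1500 nM its level was 7.67 and 7.81 (0.89, adjusted p = 6.97e-06), and with Aza at 1500 nM 7.34 and 7.21 (0.43, adjusted p = 0.00592). The call with Aza was lost without Aza replicate 1 (adjusted p = 0.102). Its probe set carries the suffix _s_at.

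H2AC25, an H2A gene on chromosome 1, rose by 1.00 with DAC at 5 µM (9.07 and 9.04, against 7.90, 8.10, 8.10 and 8.10 with DMSO) and by 0.70 at 120 nM. G668684 raised it by 0.95 and 0.64, and G669071 by 0.80 and 0.53. Its second tested probe set was not called in any of these. H2AC8, another canonical H2A gene, differed from these in its order by dose. It read 5.75 and 5.76 with DAC at 5 µM and 6.38 and 6.15 at 120 nM, against 5.32, 5.42, 4.99 and 4.92 with DMSO, so that the lower dose gave the higher level (0.59 at 5 µM and 1.1 at 120 nM, adjusted p = 0.00176 and 4.21e-06). G668684 gave H2AC8 changes of 0.58 at 7 µM and 1.22 at 150 nM. The DMSO arrays of H2AC8 fell in 2 pairs, with -0.42 for replicates 3 and 4 minus 1 and 2, and its call with the lower dose of G669071 (0.43, adjusted p = 0.0394) was lost on leaving out DMSO replicate 3, DMSO replicate 4 or either G669071 array (adjusted p = 0.0938 to 0.321).

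Several of the largest changes were in H2B. H2BC12, a canonical H2B gene, read 12.64 and 12.46 with DAC at 5 µM and 12.65 and 13.11 at 120 nM, against 9.45, 9.83, 9.99 and 9.96 with DMSO. The treated arrays were all more than 2 log2 units above DMSO. H2BC12 rose by 2.74 (SE 0.13, adjusted p = 2.55e-12) and 3.07 (SE 0.13, adjusted p = 7.17e-13), with G668684 by 2.78 and 2.98, and with G669071 by 2.77 and 2.13. At 1500 nM G669043 gave 11.07 and 11.19 and Aza 10.60 and 10.49, each above all 4 DMSO arrays, with rises of 1.32 (adjusted p = 9.94e-07) and 0.74 (adjusted p = 0.000469).

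H2BC5 read 10.97 and 11.17 with DAC at 5 µM and 10.79 and 10.83 at 120 nM, against 7.66, 7.92, 8.0 and 8.01 with DMSO on its brightest probe set. It rose by 3.17 (SE 0.09, adjusted p = 7.77e-16) and 2.91 (SE 0.09, adjusted p = 2.24e-15) with DAC, and by 1.16 and 0.67 with G669043 and Aza at 1500 nM. Its other probe set rose in the same 6 comparisons of DAC, G668684 and G669071 by 1.41 to 2.32, but not with Aza at 1500 nM (0.25, adjusted p = 0.189). H2BC9 read 8.73 and 8.91 with DAC at 5 µM, 8.92 and 9.10 with DAC at 120 nM, and 5.88, 5.98, 6.16 and 6.05 with DMSO. The groups were far apart, by 2.80 (SE 0.13, adjusted p = 1.33e-12) and 2.99 (SE 0.13, adjusted p = 7.67e-13). H2BC6 gave changes of 2.31 and 2.48 with DAC. All tested probe sets of H2BC5, H2BC9 and H2BC6 have the suffix _x_at, so signal shared between H2B genes cannot be separated here. With Aza at 1500 nM the calls of H2BC9 (0.46, adjusted p = 0.0158) and H2BC6 (0.38, adjusted p = 0.0229) were each lost without either Aza array, and that of H2BC6 also without DMSO replicate 4 (adjusted p = 0.0582 to 0.185).

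H2BC12L carried the largest rise of any member, 3.69 with DAC at 120 nM, from 11.61 and 11.59 against 7.69, 7.94, 7.96 and 8.07 with DMSO. It matches the rule by name but lies on chromosome 21, outside the clusters, and is a near-copy of H2BC12. Its probe set has the suffix _x_at, so its signal cannot be separated from that of H2BC12 here.

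Other H2B genes rose less. H2BC21, a polyadenylated H2B gene on chromosome 1, read 8.01 and 8.40 with DAC at 5 µM and 7.68 and 7.61 at 120 nM, against 6.16, 6.37, 6.63 and 6.5 with DMSO. The changes were 1.79 (SE 0.16, adjusted p = 2.48e-08) and 1.23 (SE 0.16, adjusted p = 8.28e-06). With the lower dose of G669071 H2BC21 stayed short of the threshold (0.47, adjusted p = 0.056), but passed it under 5 alternatives: the replicate block, DMSO replicates 1 and 2 alone, the beta-actin covariate, 1 probe set per gene, and without DMSO replicate 3. H2BC4, which shares its upstream region with H2AC6, rose by 0.99 and 0.93 with DAC, by 0.82 and 0.76 with G668684 and by 0.85 with the higher dose of G669071. H2BC11 rose by 0.77 and 0.75 with DAC from DMSO levels of 4.49 to 4.71, which are below the filter value, so the size of that rise is not settled.

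**Figure D3:**
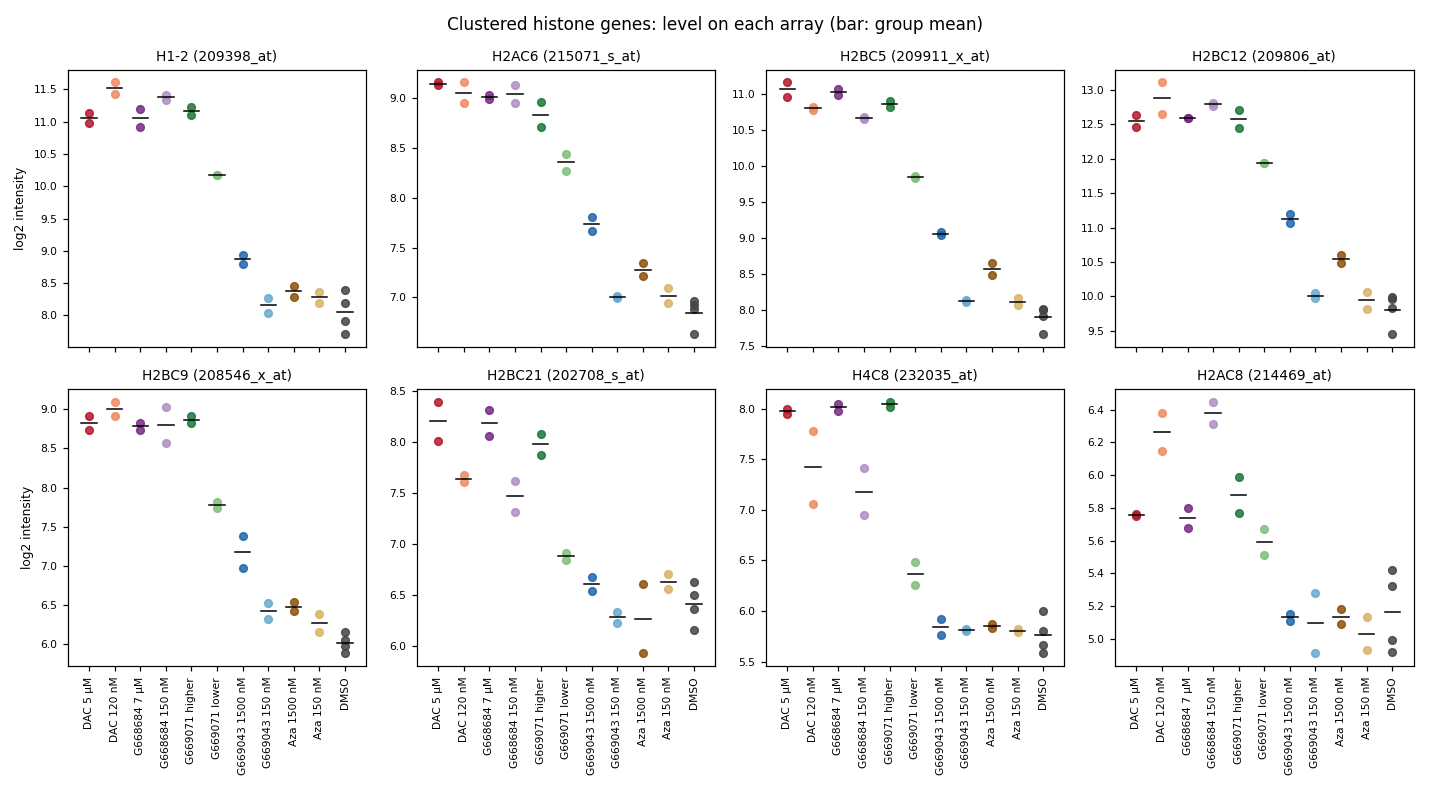
Log2 intensity (y axis, its own range in each panel) of 8 clustered histone genes on each of the 24 arrays, by treated group with DMSO last (x axis), with a bar at each group mean. H1-2, H2AC6, H2BC5, H2BC12 and H2BC9 stand high in all 6 DAC, G668684 and G669071 groups and between those and DMSO with G669043 at 1500 nM, whereas H2AC8 stands higher at the lower than at the higher dose of DAC and of G668684.

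A raised and an uncalled H2B gene of the same clusters are printed side by side for the same reason, H2BC12 at chr6:27146809-27147108 and H2BC13 at chr6:27807880-27808179, both on the minus strand, with the same capitals.
H2BC12: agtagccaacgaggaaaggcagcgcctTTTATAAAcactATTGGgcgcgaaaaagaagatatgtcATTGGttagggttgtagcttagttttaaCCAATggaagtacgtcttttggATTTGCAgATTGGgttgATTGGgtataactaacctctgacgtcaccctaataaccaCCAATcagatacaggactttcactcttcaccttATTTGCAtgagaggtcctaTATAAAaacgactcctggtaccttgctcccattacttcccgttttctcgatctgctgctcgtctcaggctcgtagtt
H2BC13: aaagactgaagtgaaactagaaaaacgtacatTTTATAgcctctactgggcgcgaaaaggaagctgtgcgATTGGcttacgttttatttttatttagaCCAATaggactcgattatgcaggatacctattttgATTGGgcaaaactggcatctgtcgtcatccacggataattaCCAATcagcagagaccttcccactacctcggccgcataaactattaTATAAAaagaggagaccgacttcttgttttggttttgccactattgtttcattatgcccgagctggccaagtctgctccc
The H2BC12 window holds ATTTGCA 2 times and that of H2BC13 0 times, while both hold TATAAA (3 and 2 times) and CCAAT (6 and 4 times). ATTTGCA is the core of the octamer element known from H2B promoters, which POU2F1 binds. A run that reads as TATAAA on both strands was counted on each. Over clustered genes with a window, ATTTGCA was present in 12 of 18 that rose in at least 1 comparison with DMSO (66.7%) and in 4 of 21 that did not (19.0%), beside 4.2% of all 35116 windows of that length. The genes that rose include H2BC11 and H2BC17, which entered the test through treated arrays alone. TATAAA was present in 14 of 18 and 13 of 21 (11.5% of all windows), and CCAAT in 17 of 18 and 17 of 21 (34.6% of all windows). These are letter matches only and H2B genes made up 9 of the 18 that rose. Within H2B, 8 of 9 that rose and 2 of 4 that did not held ATTTGCA, so the printed pair does not stand for all H2B genes. A gene was counted if any of its windows held the motif, whereas the shares of all windows count each window. Divergent genes with overlapping windows were counted separately, so the same stretch may count for each of them.

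H2AC6 and H2BC4 are one of 4 tested pairs of divergent genes whose windows overlap, here by 255 bases, and both rose. The window of H2AC6, at chr6:26123922-26124221 on the plus strand, is shown because it covers most of that shared region.
H2AC6: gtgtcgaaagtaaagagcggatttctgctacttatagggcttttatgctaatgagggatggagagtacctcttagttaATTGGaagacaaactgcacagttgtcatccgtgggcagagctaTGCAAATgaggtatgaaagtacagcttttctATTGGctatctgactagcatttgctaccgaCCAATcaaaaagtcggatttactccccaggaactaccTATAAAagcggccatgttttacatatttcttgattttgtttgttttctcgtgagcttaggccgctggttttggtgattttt
It holds TATAAA 1 time, CCAAT 3 times and ATTTGCA 1 time. In the pair H2AC17 and H2BC17, whose windows overlap by 261 bases, H2AC17 rose by 0.58 with DAC at 5 µM, and H2BC17 changed by 0.39 but was tested only because treated arrays reached the filter. Of H2AC14 and H2BC14 only H2AC14 was called, with the low doses of DAC and G668684, and H2AC15 and H2BC15 were not called at all. Raised and uncalled genes thus stood next to each other on chromosome 6, where RefSeq order runs H2BC4, H2AC6, H1-4 and H2BC5, and H2BC12 is followed by H4C9.

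H3 and H4 gave few single-gene results. H4C8, one of the clustered H4 genes, read 7.95 and 8.0 with DAC at 5 µM and 7.06 and 7.78 at 120 nM, against 5.58, 5.66, 6.00 and 5.80 with DMSO on its brighter probe set. It rose by 2.21 (SE 0.15, adjusted p = 6.8e-10) and 1.66 (SE 0.15, adjusted p = 1.1e-07), with no overlap between treated and DMSO arrays, and its other probe set rose by 1.59 and 1.32. G668684 raised H4C8 by 2.25 and 1.42 and G669071 by 2.28 and 0.61. The last call was lost without G669071 lower-dose replicate 1 (adjusted p = 0.173). G669043 and Aza at 1500 nM did not bring H4C8 past the threshold. H3C6 rose by 0.95 and 0.33 with DAC and by 0.80 with G668684 at 7 µM on 1 probe set, while its brighter probe set was not called. A probe set which names 10 H3C genes and so lies outside the rule, averaged 1.87 log2 units above DMSO with DAC at 5 µM, whereas another that names the same 10 genes averaged -0.03, so H3C signal outside the rule was not uniform.

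Among tested probe sets, each with 1 gene symbol, the only clustered genes that fell in any comparison with DMSO were 3 H4 genes. These, H4C1, H4C4 and H4C11, are named after their values were seen. A brighter, untested probe set shared by many H4C genes averaged -0.75 against DMSO with DAC at 5 µM, and another that names the same genes averaged 0.43. H4C11 read 8.24 and 8.08 with DAC at 5 µM and 8.35 and 8.23 at 120 nM, against 8.53, 8.78, 8.49 and 8.49 with DMSO. Its changes were -0.41 (adjusted p = 0.0009) and -0.28 (adjusted p = 0.0237), and it also fell with G668684 at 7 µM, the higher dose of G669071, G669043 at 1500 nM and Aza at 1500 nM. H4C4 fell with G668684 at 7 µM (-0.32) and the higher dose of G669071 (-0.29), and H4C1 with the higher dose of G669071 alone (-0.29, adjusted p = 0.0448).

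Some histone probe sets differed between the higher and the lower dose of a compound. DAC at 5 µM over 120 nM gave 6 members higher and 6 lower (11.4% of all probe sets called, 6.75% higher and 4.66% lower), G668684 at 7 µM over 150 nM gave 8 higher and 7 lower (8.52%, or 5.87% and 2.65%), and the higher over the lower dose of G669071 gave 14 higher and 2 lower (6.5%, or 3.97% and 2.54%). These counts dropped to 6 without DAC 5 µM replicate 2, to 7 without replicate 1 of either G668684 dose, and to 10 without G669071 lower-dose replicate 2. Of the 46 clustered probe sets, 3 were higher and 2 lower with DAC (6.5% and 4.3%), near the shares over all probe sets. With G668684, 5 clustered probe sets were higher and 3 lower (10.9% and 6.5%). Of the 25 replacement probe sets, 3 were higher and 4 lower with DAC, and likewise with G668684. With G669071, 13 of the 14 that were higher were clustered, among them H4C8 (1.68), H2BC9 (1.1), H2BC21 (1.09), H2BC5 (1.02) and H1-2 (0.99). The DAC and G668684 comparisons differed by gene. H4C8 was higher at the higher dose of both on its brighter probe set (0.56 with DAC, adjusted p = 0.045, and 0.83 with G668684, adjusted p = 0.00377). So was H2AC25 on its brighter probe set (0.30 and 0.32). The second tested probe set of each gene was not called in these dose comparisons of DAC and G668684. H2AC8 was lower at the higher dose of both (-0.51, adjusted p = 0.0357, and -0.64, adjusted p = 0.0107), as was H2BC12L (-0.56 and -0.34). H1-2 (-0.46 ± 0.33 and -0.32 ± 0.33, 95% interval) and H2BC12 (-0.33 ± 0.31) did not pass the threshold.

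**Figure D4:**
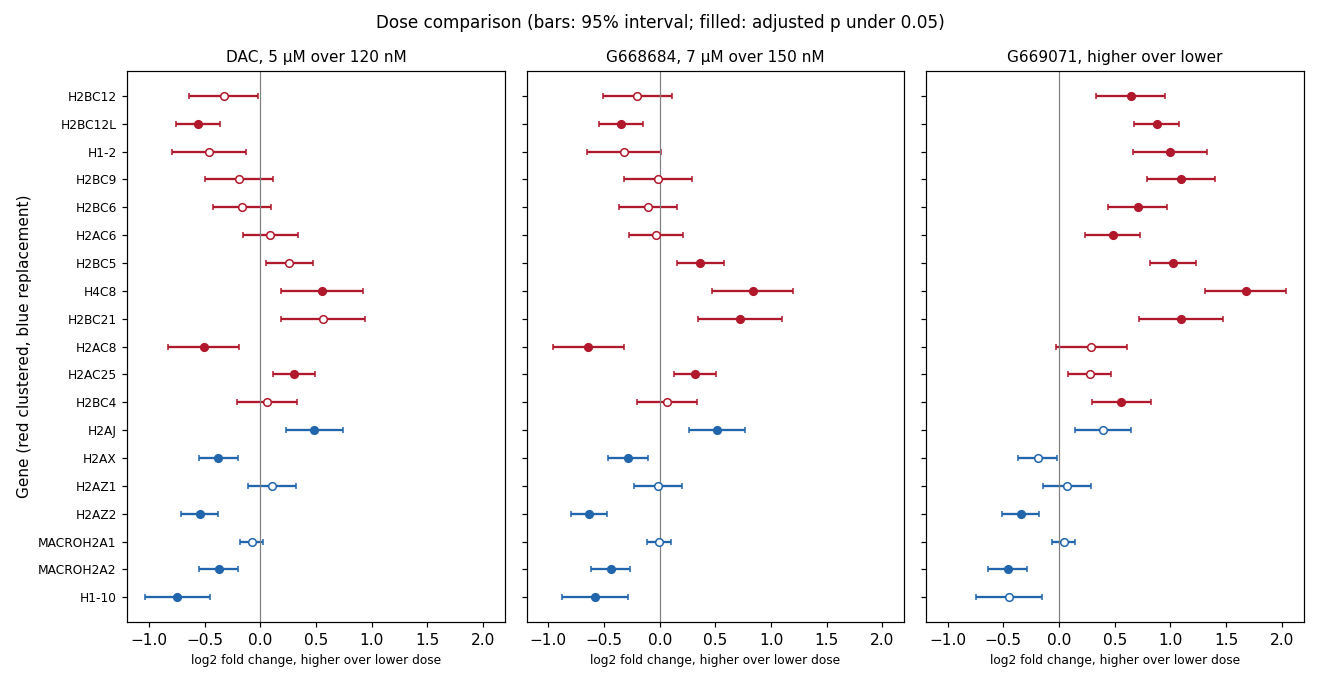
Log2 fold change of the higher over the lower dose (x axis) of DAC, G668684 and G669071 for the 12 clustered (red) and 7 replacement (blue) genes listed on the y axis, with 95% intervals and filled points where adjusted p was under 0.05. All clustered genes but H2AC8 and H2AC25 pass to the right with G669071, while with DAC and G668684 H2AC8 and H2BC12L lie to the left.

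G669043 was compared with Aza at 1500 and 150 nM, which makes 2 pairs. G668684 at 150 nM has the same nominal dose as the lower one of each but was compared with DMSO and its own higher dose only. At 1500 nM, G669043 over Aza gave 3 members higher and none lower (1.25% of all probe sets called, 0.876% higher and 0.378% lower): H2BC9 (0.69, SE 0.15, adjusted p = 0.0206), H2BC12L (0.69, SE 0.10, adjusted p = 0.000574) and H2BC5 (0.49, SE 0.10, adjusted p = 0.0178). H2BC9 read 7.38 and 6.97 with G669043 and 6.42 and 6.54 with Aza. H2BC12 missed the threshold at 0.58 ± 0.31 (95% interval, adjusted p = 0.0572), and so did H2AC6 (0.47, adjusted p = 0.0536) and H1-2 (0.49, adjusted p = 0.139). The count of 3 was 1 without Aza replicate 2 or without G669043 replicate 1. At 150 nM no member was called with limma (0.0341% of all probe sets called, 0.00569% higher and 0.0285% lower), and 6 clustered and 2 replacement probe sets had an unadjusted p under 0.05, beside 3347 of 35146 probe sets. Within G669043, 1500 nM over 150 nM raised 8 clustered probe sets and lowered none (2.7% called, 1.05% higher and 1.65% lower), and 5 without replicate 1 at 1500 nM. Within Aza, 1500 nM over 150 nM raised 3 (4.27% called, 1.55% higher and 2.72% lower), all H2B: H2BC12 (0.60), H2BC12L (0.47) and H2BC5 (0.46). That count was 0 without Aza 1500 nM replicate 1 or Aza 150 nM replicate 2, and 1 without Aza 150 nM replicate 1.

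Replacement variants changed less and mostly downward. MACROH2A2, which encodes a macroH2A, an H2A with a large extra domain, read 8.93 and 8.90 with DAC at 5 µM and 9.36 and 9.22 at 120 nM, against 9.70, 9.54, 9.56 and 9.50 with DMSO. All treated arrays were below all DMSO arrays, by -0.66 (SE 0.07, adjusted p = 5.48e-07) and -0.28 (SE 0.07, adjusted p = 0.00742). The second call was lost without DAC 120 nM replicate 2 (adjusted p = 0.117). G668684 lowered MACROH2A2 by -0.77 and -0.33 and the higher dose of G669071 by -0.64, and in all 3 compounds the higher dose was lower than the other (-0.38, -0.44 and -0.46, adjusted p = 0.00154 to 0.00511).

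H1-10, a replication-independent linker histone, read 8.50 and 8.53 with DAC at 5 µM and 9.35 and 9.17 at 120 nM, against 9.45, 9.46, 9.27 and 8.99 with DMSO. It fell at 5 µM (-0.78, SE 0.12, adjusted p = 4.77e-05) and overlapped DMSO at 120 nM (-0.03, adjusted p = 0.91). G668684 at 7 µM gave -0.78, the higher dose of G669071 -0.48 and Aza at 1500 nM -0.50 (adjusted p = 0.00766), where H1-10 was the one replacement variant called. The G669071 call was lost without its replicate 2 (adjusted p = 0.0857) and the Aza call without Aza replicate 2 (adjusted p = 0.163). DMSO replicates 3 and 4 minus replicates 1 and 2 came to -0.33 for H1-10.

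The H2A.Z genes fell at the higher doses. H2AZ2 read 11.28 and 11.34 with DAC at 5 µM and 12 and 11.71 at 120 nM, against 11.75, 11.91, 11.78 and 11.78 with DMSO on its brightest probe set. It fell at 5 µM (-0.49, SE 0.07, adjusted p = 9.65e-06) and with G668684 at 7 µM (-0.49), and its 3 other probe sets fell with both as well. With the higher dose of G669071 the change was -0.22 (adjusted p = 0.0203), which was lost without DMSO replicate 2 or G669071 replicate 1 (adjusted p = 0.0548 and 0.249). H2AZ1 fell on 1 probe set by -0.30, -0.24 and -0.18 with DAC at 5 µM, G668684 at 7 µM and the higher dose of G669071, while its brighter probe set was not called. H2AX, the variant phosphorylated at DNA breaks, read 10.63 and 10.7 with DAC at 5 µM, against 10.9, 10.92, 11.07 and 10.82 with DMSO, with no overlap. It fell by -0.26 with DAC at 5 µM and by -0.27 with G668684 at 7 µM (adjusted p = 0.00905 and 0.00793), and dropping replicate 1 of either treated group ended its call (adjusted p = 0.111 and 0.197). H2AX was also lower at the higher dose of DAC (-0.38) and G668684 (-0.28).

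H2AJ was the exception. This H2A variant from a lone locus on chromosome 12 read 9.89 and 9.87 with DAC at 5 µM and 9.57 and 9.22 at 120 nM, against 8.94, 9.24, 8.96 and 8.90 with DMSO on its brighter probe set. At 5 µM both arrays were above all DMSO arrays (0.87, SE 0.10, adjusted p = 1.8e-06), whereas at 120 nM 1 array overlapped them (0.38, SE 0.10, adjusted p = 0.0117). G668684 raised H2AJ by 0.85 and 0.34 and the higher dose of G669071 by 0.59, and the second tested probe set rose in the same groups. Both tested probe sets have the suffix _x_at, so signal shared with other sequences cannot be separated here. The other H2AJ probe sets stayed under log2 5 on every array and were not tested. The low-dose calls of the first probe set were lost without DAC 120 nM replicate 1 (adjusted p = 0.319) and, for G668684, without any 1 of DMSO replicates 1, 3 and 4 or either treated array (adjusted p = 0.0569 to 0.15). With Aza and G669043 H2AJ was not called at any dose. Its window, at chr12:14774155-14774454 on the plus strand, is given for contrast with the clustered promoters.
H2AJ: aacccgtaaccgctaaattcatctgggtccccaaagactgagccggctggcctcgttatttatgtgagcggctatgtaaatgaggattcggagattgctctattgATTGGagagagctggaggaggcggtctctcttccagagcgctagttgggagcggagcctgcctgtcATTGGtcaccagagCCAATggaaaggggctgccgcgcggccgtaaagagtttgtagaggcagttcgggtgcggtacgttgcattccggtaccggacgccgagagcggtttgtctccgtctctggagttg
It holds CCAAT 3 times and neither TATAAA nor ATTTGCA, and no ATTTGCA was found in the windows of any of the 10 replacement genes.

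Probe sets of MACROH2A1 disagreed. The brightest one of MACROH2A1 read 12.31 and 12.33 with DAC at 5 µM, against 12.50, 12.48, 12.52 and 12.45 with DMSO (-0.17, adjusted p = 0.00627). Another probe set of MACROH2A1 read 7.73 and 8.01, against 7.10, 7.39, 7.19 and 7.18 with DMSO, and rose by 0.66 with DAC at 5 µM (adjusted p = 0.000402), 0.65 with G668684 at 7 µM and 0.47 with the higher dose of G669071. A further MACROH2A1 probe set read 11.10 and 11.19 with DAC at 5 µM, against 11.37 to 11.45 with DMSO. Yet another read 6.14 on both arrays, against 6.44 to 6.76 with DMSO. The remaining tested ones overlapped DMSO there. MACROH2A1 is known to be spliced into isoforms, and which of them each probe set matches was not analysed here. Its calls on the brightest probe set with DAC at 5 µM, G668684 and G669071 were each lost without at least 1 library, up to an adjusted p of 0.366. H3-3A, H1-7 and H1-8 were not called in any comparison with DMSO, ranging from -0.24 to 0.18 over their 5 probe sets.

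**Figure D5:**
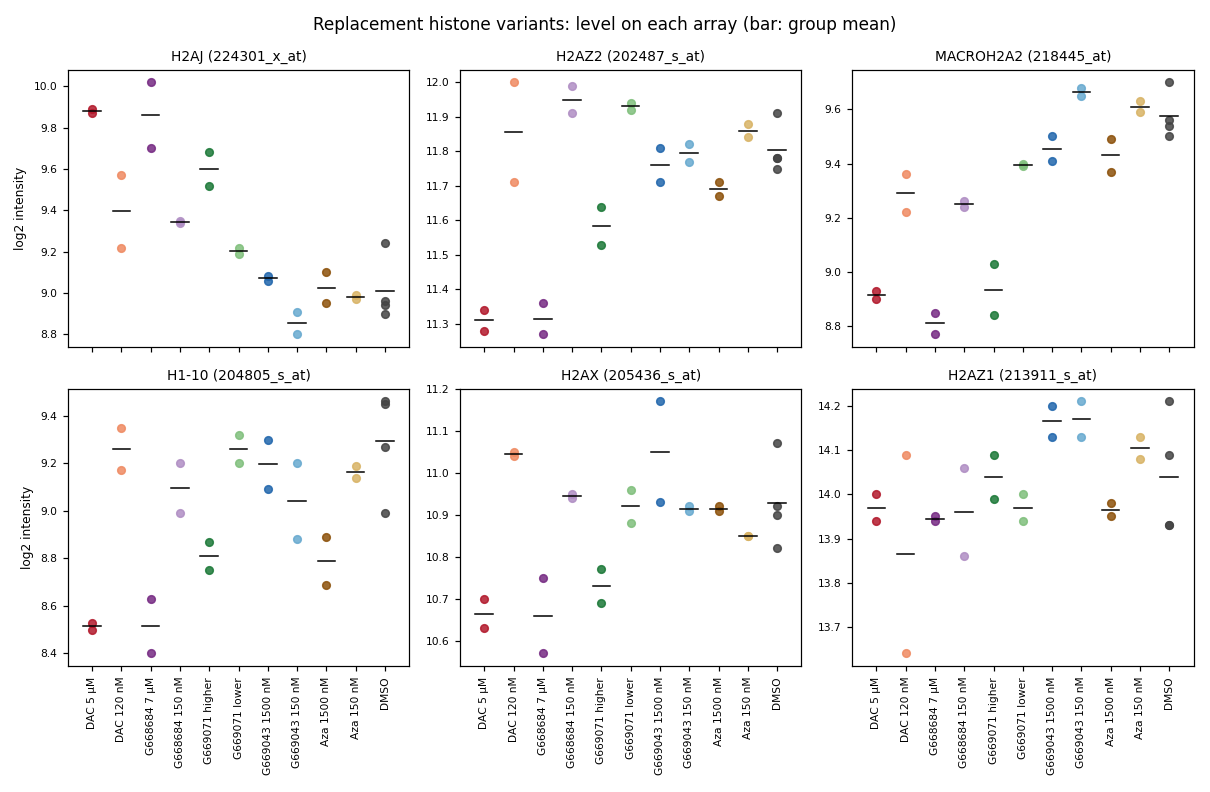
Log2 intensity (y axis, its own range in each panel) of 6 replacement variants on each of the 24 arrays, by treated group with DMSO last (x axis), with a bar at each group mean. H2AZ2, MACROH2A2, H1-10 and H2AX are lowest at the higher doses of DAC and G668684, H2AJ is highest there, and the H2AZ1 probe set drawn shows no such separation.

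Among genes that supply and place histones, more fell than rose with DAC. Of 22 genes for transcription and 3′ processing of histone mRNA, 21 were tested, and with DAC at 5 µM 2 rose and 11 fell, and 3 rose and 4 fell with DAC at 120 nM, where 13.1% and 9.4% of all probe sets fell. CASP8AP2, a factor of the histone locus body that is needed for histone gene transcription, changed most (-1.48, SE 0.17, adjusted p = 1.32e-06). CCNE2, a cyclin of entry into S phase, fell too (-0.78, SE 0.20, adjusted p = 0.00444). CSTF2, a cleavage factor of mRNA 3′ ends, rose by 0.31 and LSM10, part of the U7 particle that processes histone mRNA, by 0.27. Of 35 genes for deposition and chaperones, 34 were tested, and 3 rose and 19 fell with DAC at 5 µM, and 2 rose and 8 fell at 120 nM. MCM2, a helicase subunit that also binds histones, fell by -1.03 with G668684 at 7 µM. The histone chaperones CHAF1A (-0.97), NASP (-0.88) and ASF1B (-0.77) fell with DAC at 5 µM, and HIRA (-0.79), ATRX (-0.77) and SSRP1 (-0.76) also fell with G668684 at 7 µM. ZNHIT1, a subunit of the complex that deposits H2A.Z, rose by 0.76 with G668684 at 7 µM.

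S phase genes mostly fell with DAC, G668684 and G669071, where most called clustered histone probe sets rose. Of 29 tested from a list of 30, 28 fell with DAC at 5 µM and 28 with G668684 at 7 µM, 20 with each of their lower doses, and 26 and 17 with the higher and lower dose of G669071, with none higher. The median was -0.80 with DAC at 5 µM and -0.35 at 120 nM, beside -0.05 and -0.01 over all probe sets. G669043 at 1500 nM lowered 4 and raised none, and Aza at 1500 nM lowered 4 and raised 2. The share of cells in S phase was not measured, fewer such cells and less RNA per cell cannot be told apart in these bulk samples, and the part of either in the histone changes was not tested.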

How the data were processed

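RNA from 24 HCT116 samples was measured on Affymetrix HG-U133 Plus 2.0 arrays. The authors deposited 1 linear intensity per probe set and array, and the submitters' processing notes name RMA and version 1.1 of Affymetrix Expression Console. Log2 of the deposited values fell on steps of 0.01, and no 2 arrays were identical. Of 54675 probe sets, 41091 have 1 gene symbol in the platform annotation, 1801 several, and 11721 none. A probe set was tested if log2 intensity reached 5 on 2 or more arrays, which kept 35146. limma 3.58.1 in R 4.3.3 (lmFit, then eBayes with a trend) was fitted to all 24 arrays with a mean per group, for 17 comparisons, with Benjamini-Hochberg adjustment over all tested probe sets and a threshold of 0.05. The number of arrays limits the precision (13 residual degrees of freedom). The script was tested on simulated data.

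Named genes were the clustered ones with the largest changes among those called, plus the 10 replacement genes, each by its brightest probe set unless another is named. The members and gene lists were chosen with earlier results of these data known. All comparisons with DMSO share its 4 arrays. Alternatives covered filters, an offset, normalization, a replicate block, DMSO pairs, a beta-actin covariate, the compared groups alone and each array left out.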

Additional observations from a re-analysis of the deposited data

Results flagged for a closer look

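The DMSO levels of H2AC25 were 7.90, 8.10, 8.10 and 8.10, so replicate 1 stood apart from the others, with a ratio of gap to range of 1.0, above Dixon's critical value for 4 samples. Chance gives such a value in about 1 of 20 groups, and 24 genes were examined.

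Of the 28 probe sets that name a member gene together with other genes, 10 had both arrays of a treated group above all DMSO arrays and a mean at least 1 log2 unit above DMSO, and these lay outside the rule and were not tested. The largest were those of the H2A genes H2AC18 and H2AC19, at 3.39 and 3.13 with G668684 at 7 µM. Probe sets shared by H2BC4, H2BC6, H2BC7, H2BC8 and H2BC10 reached 3.27 with DAC at 5 µM, 2.51 with DAC at 120 nM and 1.99 with G668684 at 7 µM. One shared by 6 H2AC genes reached 2.47 with G668684 at 7 µM. Those naming H3C genes reached 1.87 and 1.69 (with H2AC7) with DAC at 5 µM and 1.49 (with H2AC7) with G668684 at 7 µM. The probe set of H2BC8 and H2BC11 reached 1.54 with DAC at 120 nM. Probe sets that name the same 14 H4C genes differed. The brightest had a DMSO mean of 13.96. It averaged -0.75 against DMSO with DAC at 5 µM, -0.77 with G668684 at 7 µM and -0.89 with the higher dose of G669071. Another averaged 0.43, 0.48 and 0.48 in those groups, with both arrays of each group above all DMSO arrays. Those with DMSO means of 8.26, 5.88 and 3.72 averaged -0.24, -0.23 and -0.04 with DAC at 5 µM. One that names H3-3A and H3-3B averaged -0.74, -0.82 and -0.91 in those groups. Another that names both with H3P6, with a DMSO mean of 13.51, averaged 0.09, 0.05 and 0.04 there. Every array of those 3 groups lay below every DMSO array in the brightest H4C probe set. The same held for the H3-3A and H3-3B probe set that averaged -0.74 with DAC at 5 µM. None of these shared probe sets was tested.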

How the results depend on the processing

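No called fold change reversed. Over the named genes, 112 called results met 1787 alternatives, of which 1713 kept their call and 74 did not, most of them small changes of H2AJ at low doses, MACROH2A1, H2AX, H2AC8 and the genes called with Aza. H1-2 with G669043 at 1500 nM was lost when only the compared groups were fitted (adjusted p = 0.0595).

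Replicate numbers did not pair the treated samples in a uniform way. The deviations of 45 same-numbered pairs correlated between -0.378 and 0.596, with 16 over 0.1 and 13 under -0.1. Pairs among the DAC and G668684 groups were all positive (0.253 to 0.596). Those of the same groups with Aza at 1500 nM were all negative (-0.378 to -0.263). The DMSO arrays were not part of this check. With a replicate block, the number of histone probe sets called was 1 for Aza at 150 nM, 17 for G669043 at 150 nM and 6 for G669043 over Aza at 1500 nM, against 0, 0 and 3. With DMSO replicates 1 and 2 alone it was 1 for Aza and 15 for G669043, both at 150 nM. With DMSO replicates 3 and 4 alone it was 23 for the lower dose of G669071, 18 and 3 for Aza at 1500 and 150 nM. The beta-actin covariate gave 2 for G669043 at 150 nM, 14 for its 1500 over 150 nM and 1 for G669043 over Aza at 1500 nM. Only the compared groups gave 4 for Aza at 1500 nM, 3 for the DAC doses, 8 for the Aza doses, and 8 and 1 for G669043 over Aza at 1500 and 150 nM. A second quantile normalization gave 5 for G669043 over Aza at 1500 nM. The cause of these shifts was not tested.

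Leaving out 1 array at a time gave 26 to 34 for DAC at 5 µM, 18 to 24 for DAC at 120 nM, 29 to 34 and 18 to 26 for G668684 at 7 µM and 150 nM, 21 to 29 and 11 to 16 for the higher and lower dose of G669071, 7 to 10 for G669043 and 4 to 10 for Aza at 1500 nM, and 0 to 0 for both at 150 nM. For higher over lower dose it gave 6 to 11 with DAC, 7 to 11 with G668684, 10 to 11 with G669071, 5 to 6 with G669043 and 0 to 2 with Aza. G669043 over Aza gave 1 to 3 at 1500 nM and 0 to 0 at 150 nM. Levels near the filter value limit H2BC11, H2BC17 and H2AC8.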
